A study of Mus musculus with 4 samples.

Results

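The genes described here are Pigr, Dmbt1, Ang4 and Lyz1, which encode an IgA transporter and 3 secreted defence proteins of the gut mucosa. They were taken by symbol from the deposited table of genes that differed between genotypes, which lists 4121 genes. They were chosen with earlier results of these data known, so the presence of all 4 there is not a result. The table compares inflamed distal colon of wild-type (WT) C57BL/6 mice with that of C57BL/6 mice lacking Elf4 (Elf4-KO), an Ets family transcription factor. All animals were 8 weeks old and all had been given dextran sulfate sodium (DSS) at 3%, which damages the colon lining and brings on colitis, with tissue taken at day 6. The sources used here do not give how the Elf4 allele was made, nor whether both samples of a genotype came from separate animals.

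Each genotype was sequenced as 2 samples, but the authors deposited 1 FPKM value per gene and genotype (fragments scaled by transcript length and mapped fragments). No SD, n or test between samples can therefore accompany any value, and read depth is unknown. "Rose" and "fell" refer to the authors' own call, since every row of their deposited table had a q no larger than 0.05 and a difference of 2-fold or more. Where no q is given beside a named gene, its q in the authors' deposited table was 0.000372, the smallest there and one shared by 2233 genes. A gene missing from the table is called unlisted and is not analysed further. Elf4 itself was listed at 16.4 FPKM in WT and 3.51 FPKM in Elf4-KO tissue.

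IgA reaches the gut lumen by transcytosis. The polymeric immunoglobulin receptor, made from Pigr, binds joined IgA at the base of the epithelial cell, carries it through the cell and is cut at the luminal face, where part of it stays attached as secretory component. Dmbt1 encodes a large secreted glycoprotein built from scavenger receptor cysteine-rich domains that binds bacteria. Ang4 encodes an angiogenin-type ribonuclease with antimicrobial activity, and Lyz1 encodes the lysozyme of Paneth cells, which cleaves bacterial peptidoglycan. Paneth cells belong to the small intestine, and in mouse colon related deep crypt secretory cells take their place.

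The start regions of the genes are shown first because Elf4 binds DNA through an Ets domain, whose core recognition sequence is GGAA. RefSeq promoters on GRCm38.p6, running from 250 bases before to 50 bases after the transcription start, were matched for 3 of the 4 genes, Pigr (chr1:130826434-130826733, plus strand), Ang4 (chr14:51773541-51773840, minus strand) and Lyz1 (chr10:117292819-117293118, minus strand). They are written 5′ to 3′ on the gene's strand, with capitals marking GGAA on either strand.
Pigr: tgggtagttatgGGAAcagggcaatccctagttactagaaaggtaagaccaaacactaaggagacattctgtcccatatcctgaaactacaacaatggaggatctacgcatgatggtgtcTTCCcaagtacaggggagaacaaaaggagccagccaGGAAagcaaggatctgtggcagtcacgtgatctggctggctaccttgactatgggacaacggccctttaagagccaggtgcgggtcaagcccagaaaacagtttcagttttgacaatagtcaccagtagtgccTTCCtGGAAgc
Ang4: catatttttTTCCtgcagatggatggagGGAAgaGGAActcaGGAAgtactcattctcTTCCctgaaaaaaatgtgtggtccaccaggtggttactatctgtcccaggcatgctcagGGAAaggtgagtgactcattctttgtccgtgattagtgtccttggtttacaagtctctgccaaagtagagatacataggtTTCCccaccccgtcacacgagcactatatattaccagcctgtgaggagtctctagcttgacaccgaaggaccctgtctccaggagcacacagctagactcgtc
Lyz1: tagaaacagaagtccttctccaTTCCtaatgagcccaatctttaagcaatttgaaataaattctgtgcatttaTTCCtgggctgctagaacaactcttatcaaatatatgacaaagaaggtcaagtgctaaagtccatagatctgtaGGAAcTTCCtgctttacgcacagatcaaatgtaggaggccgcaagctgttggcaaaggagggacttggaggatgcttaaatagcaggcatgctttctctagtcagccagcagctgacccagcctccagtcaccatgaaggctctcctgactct
GGAA was matched 5 times in the Pigr promoter, 7 times in that of Ang4 and 4 times in that of Lyz1. It occurred in 96.0% of all 32851 promoters of the same length, with a median of 3 matches. The longer form CCGGAA, which contains GGAA, was matched 0 times in each of the 3 windows and occurred in 14.9% of all promoters.

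Motifs of factors other than Ets proteins were searched on both strands in the same windows. The E-box CACGTG was matched 1 time, in the Pigr promoter, at position -71 with the first transcribed base as 0, and it was held by 7.15% of all promoters. The interferon regulatory factor half-site AANNGAAA was matched 1 time, again in Pigr, at position 7, beside a share of 23.9% of all promoters. The STAT core TTCNNNGAA was matched in Pigr at position 39 and in Ang4 at position -192, beside 8.30% of all promoters, and both matches overlap GGAA matches. These matches describe letters only, and binding was not measured.

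Pigr lies at chr1:130826684-130852249 on the plus strand (ENSMUSG00000026417), and the span in the table is that of the annotated gene. It stood at 606 FPKM in WT and 23.0 FPKM in Elf4-KO tissue. The WT value ranked 82nd among the listed genes and the Elf4-KO value 1134th. The fall was 26.4-fold, leaving 3.79% of the WT level, and the log2 ratio of Elf4-KO over WT after adding 1 FPKM to both values was -4.66. On that scale 16 listed genes, Pigr included, fell by at least as much, which is 0.388% of the table.

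Dmbt1 (ENSMUSG00000047517) was the most abundant of the 4 genes in WT tissue, at 1723 FPKM, the 17th highest WT value in the table. In Elf4-KO tissue it stood at 44.4 FPKM. This was a 38.8-fold fall with a log2 ratio of -5.25, and 2.58% of the WT level was left.

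Ang4 (ENSMUSG00000060615), at chr14:51763878-51773590 on the minus strand, moved the other way. It was listed at 15.9 FPKM in WT and 46.2 FPKM in Elf4-KO tissue, a 2.90-fold rise with a log2 ratio of 1.48 (authors' deposited table, q = 0.00263). Of the 4 genes it was the lowest in WT and the highest in Elf4-KO tissue, where its level lay beside that of Dmbt1. Without replicate values the order of these neighbours cannot be told from their spread.

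Lyz1 (ENSMUSG00000069515), at chr10:117287796-117292868 on the minus strand, fell from 22.2 to 7.91 FPKM (authors' deposited table, q = 0.000998). The fall was 2.81-fold, with a log2 ratio of -1.38 and 35.6% of the WT level left. Lyz1 was the lowest of the 4 genes in Elf4-KO tissue.

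Of the 4 genes, 3 were thus lower in Elf4-KO tissue, beside 52.0% of all listed genes, and 1 was higher, beside 48.0%. A fall of at least 4-fold was seen in 2 of them, Pigr and Dmbt1, beside 24.5% of listed genes. The median fold was 3.71 over all listed genes that fell and 2.91 over all that rose. The Lyz1 fall was smaller than the first of these medians and the Ang4 rise was close to the second.

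**Figure D1:**
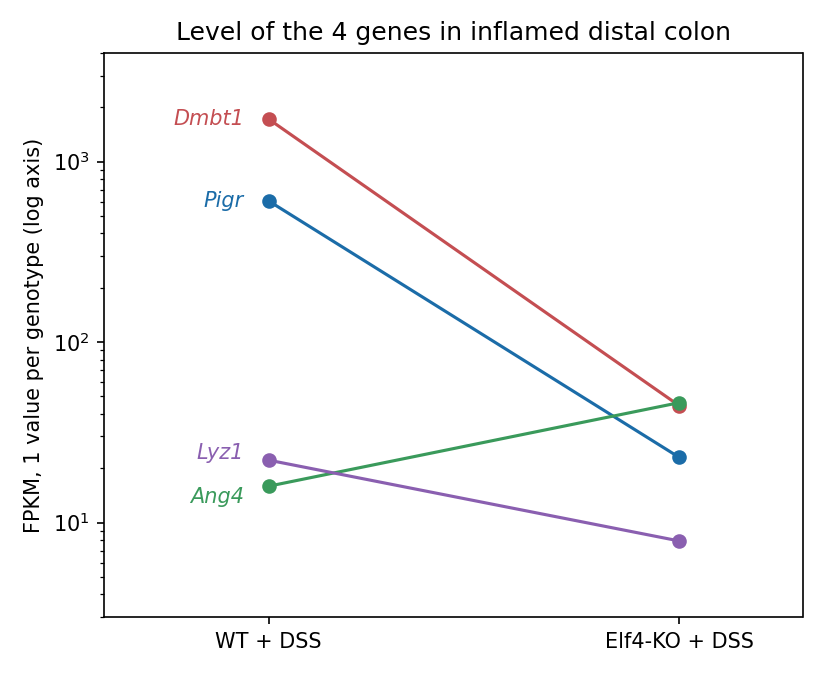
Level of each gene in WT and Elf4-KO inflamed colon, in FPKM on a log axis; each point is the authors' single value for a genotype and lines join the values of 1 gene. Dmbt1 and Pigr dropped from 1723 and 606 FPKM to 44.4 and 23.0 FPKM, Lyz1 fell from 22.2 to 7.91 FPKM, and Ang4 rose from 15.9 to 46.2 FPKM.

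**Figure D2:**
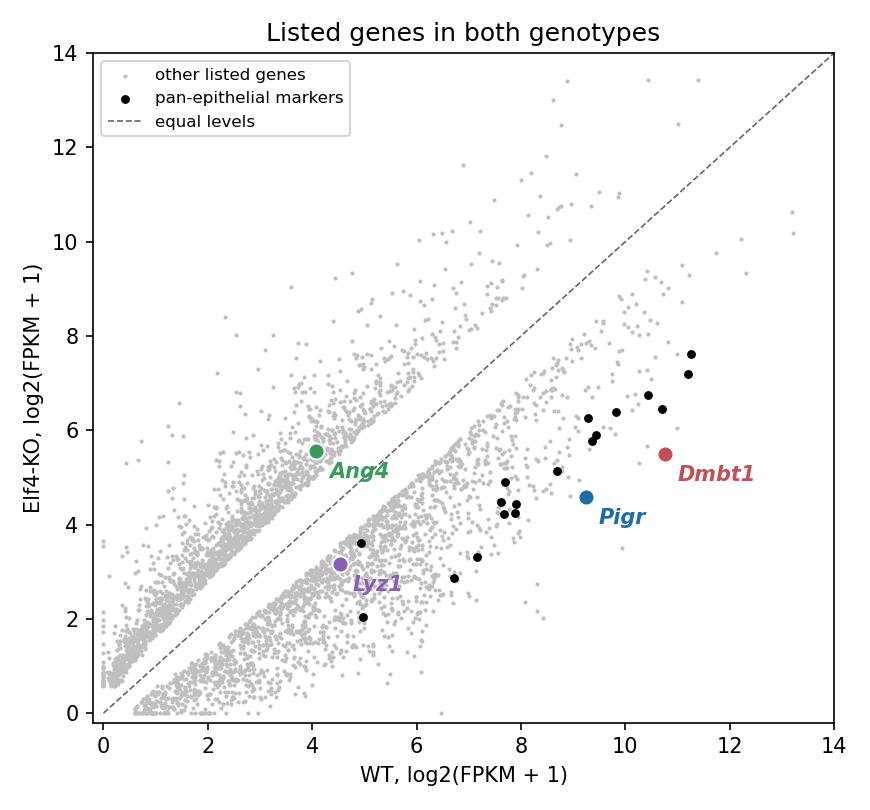
Elf4-KO against WT level of the 4121 listed genes, both as log2(FPKM + 1), with the 4 genes in color and 18 pan-epithelial markers in black; the band without points along the dashed line of equal levels is the authors' 2-fold limit. Pigr and Dmbt1 lie below the black points of similar WT level, Lyz1 lies near the lower edge of the band and Ang4 above it.

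The value of Dmbt1 needs its position beside it. The table gives its locus as chr7:130162451-133124354, a span of 2.96 Mb, while the annotated gene covers 89.6 kb at chr7:131032053-131121630 on the plus strand, so the span is 33.1 times the gene. GENCODE M21 places 69 other genes in that span, 30 of them protein-coding, and 0 of these were listed. The span begins at the lowest coordinate of Fgfr2 (chr7:130162451-133123350, minus strand, a growth factor receptor gene), which encloses Dmbt1. The span ends at the highest coordinate of Ctbp2 (chr7:132987563-133124354, minus strand), which overlaps Fgfr2. The same form was common in the table: of 335 listed loci at least 2 times as long as the annotated gene, 300 had both ends within 1 base of annotated gene ends. Whether fragments of the neighbours entered the Dmbt1 value was not tested.

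**Figure D3:**
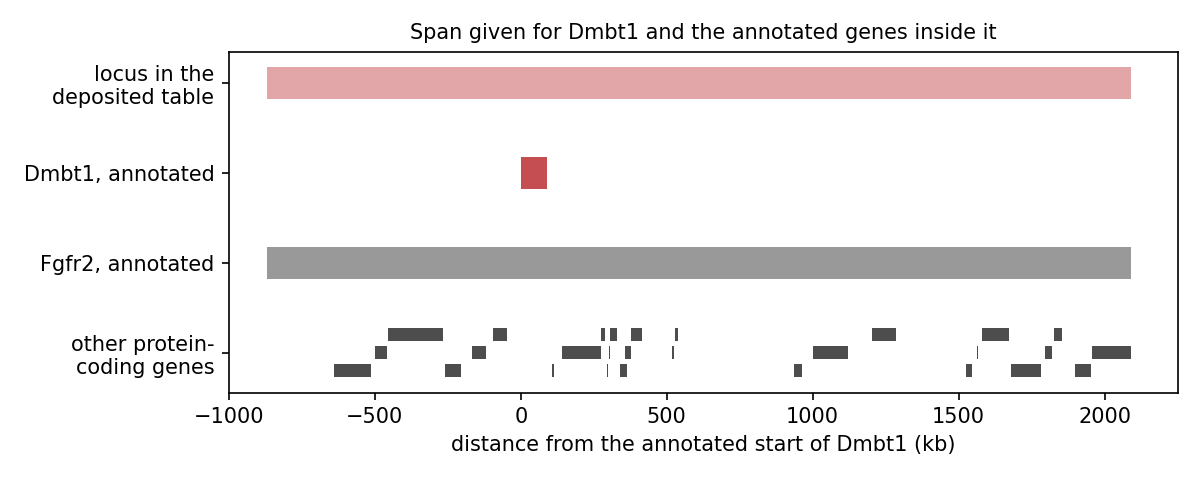
Map of the span that the deposited table gives for Dmbt1, drawn to scale in kb from the annotated start of the gene, with Dmbt1, Fgfr2 and the other annotated protein-coding genes in the span. The span reaches 870 kb before Dmbt1 and 2003 kb past its end, and its extent is close to that of Fgfr2.

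Similar or repeated sequences bear on Lyz1, Ang4 and, within its own transcript, Dmbt1. Lyz2, the lysozyme gene of macrophages and neutrophils, lies 5.48 kb from Lyz1 and was unlisted. The coding sequences of Lyz1 and Lyz2 are both 447 bases long and 95.1% identical, with a longest shared run of 118 bases. Coding bases 260 to 409 around that run are shown from GENCODE M21 (GRCm38), with capitals at the 5 differences, because a fragment lying wholly in a lower-case run cannot be assigned to 1 of the 2 genes.
Lyz1: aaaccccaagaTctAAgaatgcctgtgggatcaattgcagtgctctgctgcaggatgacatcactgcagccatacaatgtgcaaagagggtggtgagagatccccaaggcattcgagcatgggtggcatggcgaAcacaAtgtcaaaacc
Lyz2: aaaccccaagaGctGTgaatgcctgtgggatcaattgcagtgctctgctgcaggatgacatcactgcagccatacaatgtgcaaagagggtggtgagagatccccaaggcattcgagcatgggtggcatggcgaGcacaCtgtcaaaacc
Of the 1214 windows of 50 bases in the Lyz1 transcript, 195 (16.1%) also occurred in Lyz2. The sources used here do not give how the authors treated such fragments. The Lyz1 value is therefore uncertain, and the share of windows sets no bound on the error. That error also depends on the level of Lyz2, which is unknown here.

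Ang4 belongs to a cluster of angiogenin and ribonuclease genes on chromosome 14. Its closest copy among Ang, Ang2, Ang5, Ang6 and Rnase4 was Ang5, with 88.1% identical bases over the aligned coding sequence and a longest shared run of 79 bases. The last 150 coding bases of both genes hold that run, with capitals at the 14 differences.
Ang4: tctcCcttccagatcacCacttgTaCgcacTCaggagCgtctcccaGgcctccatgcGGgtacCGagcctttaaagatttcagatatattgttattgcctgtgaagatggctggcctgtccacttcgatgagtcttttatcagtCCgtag
Ang5: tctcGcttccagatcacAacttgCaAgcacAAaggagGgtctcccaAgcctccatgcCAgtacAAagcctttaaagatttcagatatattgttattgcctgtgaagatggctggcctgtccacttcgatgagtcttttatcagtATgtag
Windows of 50 bases shared with another gene made up 4.70% of the Ang4 transcript. In the Pigr transcript that share was 1.74%. In the Dmbt1 transcript it was 0%, but 25.6% of its windows occurred more than 1 time within the transcript itself, which encodes repeated domains.

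Family members were compared with Ang4 and Lyz1 next. Of 24 other ribonuclease A and lysozyme family genes, 3 were listed, all of the ribonuclease family. All 3 were higher in Elf4-KO tissue, in a table where 48.0% of all listed genes were higher, and 2 of them stayed below 1 FPKM. Rnase4 rose 2.72-fold from 69.2 to 187.9 FPKM, a size near that of Ang4. It lies 658 kb from Ang4 and encloses Ang, so its value may hold fragments of that gene. Ear6 and Rnase2a, eosinophil-type ribonuclease genes, were listed at 0 in WT and at 0.762 and 0.577 FPKM in Elf4-KO tissue (authors' deposited table, q = 0.000694 and 0.00891). Ang, Ang2, Ang5, Ang6 and Rnase1 were unlisted.

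The route that IgA takes was followed from plasma cell to lumen. Of 19 genes of IgA production and plasma cells, 4 were listed, 2 lower and 2 higher (median log2 ratio -0.09, beside -0.76 over all listed genes). Of all listed genes, 52.0% were lower. Ccl28, an epithelial chemokine that draws IgA plasma cells to the colon, fell 20.9-fold from 35.0 to 1.67 FPKM. Prdm1, a plasma cell transcription factor also made in other cells, rose from 5.55 to 11.3 FPKM (authors' deposited table, q = 0.00288). Tgfb1, whose product directs switching to IgA, rose from 19.2 to 41.3 FPKM. The IgA heavy chain gene Igha, the joining chain gene Jchain and the plasma cell genes Mzb1, Sdc1 and Tnfrsf17 were unlisted.

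Genes of epithelial transcytosis and polarized sorting were looked up beside Pigr. Of 13 such genes, 7 were unlisted, 5 were lower and 1 was higher (median log2 ratio -2.27), in a table where 52.0% of all listed genes were lower. Rab25, an epithelial GTPase of apical recycling endosomes, fell 32.5-fold from 139.6 to 4.30 FPKM. Rab17, an epithelial GTPase of transcytosis, fell 17.7-fold from 4.61 to 0.260 FPKM (authors' deposited table, q = 0.00128). Ap1m2, the epithelial subunit of a basolateral sorting adaptor, fell 14.3-fold from 49.0 to 3.43 FPKM. Myo5b, a motor of recycling endosomes, fell 5.82-fold from 40.7 to 6.997 FPKM. The fifth lower gene was Rab3b, at 10.6 and 4.05 FPKM (authors' deposited table, q = 0.0157), and the 1 higher gene was Rab11fip5, at 5.11 and 13.7 FPKM, both named after their values were seen. Rab11a, Rab3d, Rab5a, Yes1, Exoc4, Ap1b1 and Stx3 were unlisted. Chosen after its values were seen, Fcamr, a receptor gene for IgA and IgM that lies 11.9 kb from Pigr, went down to 0.249 FPKM from 1.52 FPKM (authors' deposited table, q = 0.0160).

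Genes of a list of secreted antimicrobial genes moved both ways. The list also held Nos2, Duox2 and Duoxa2, whose products are not secreted and which are among its lower genes. Of its 28 genes, 18 were listed, 14 lower and 4 higher (median log2 ratio -2.50), in a table where 52.0% of all listed genes were lower. Reg3g, a lectin that kills Gram-positive bacteria, fell 13.8-fold from 170.7 to 12.4 FPKM. The 4 that rose were the acute-phase gene Saa3 (13.0-fold), the siderophore-binding gene Lcn2 (13.1-fold) and the calprotectin genes S100a8 (11.8-fold) and S100a9 (10.6-fold), the last of these chosen after its values were seen. Of these 4, 3 (Lcn2, S100a8 and S100a9) belong to the neutrophil marker list too and are counted in both lists. Among the lower genes, Ltf is also in the neutrophil marker list and Reg4 also in the Paneth and deep crypt secretory cell list. Pigr and Dmbt1 fell by more than each of the 18, on the log2 scale. Lyz1 fell by less than 13 of the 14 lower genes. The 4 higher genes each rose by more than Ang4.

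Ang4 and Lyz1 were set beside a list of Paneth and deep crypt secretory cell genes. The list also held goblet cell and shared secretory lineage genes, such as Muc2, Clca1, Fcgbp, Spdef and Atoh1. Of its 22 genes, 12 were listed, 11 lower and 1 higher, in a table where 52.0% of all listed genes were lower. Their median log2 ratio was -2.38, and their summed level went from 5392 to 594 FPKM. Spink4, a protease inhibitor gene of secretory cells, fell 31.0-fold. Agr2, needed for mucin folding, fell 27.6-fold, the mucus gene Fcgbp 13.2-fold and the secretory lineage factor Atoh1 13.9-fold, from 10.3 to 0.740 FPKM. Reg4, named after its values were seen, fell 7.35-fold from 16.8 to 2.29 FPKM. The 1 that rose was Kit, also a mast cell and pacemaker cell gene, from 7.95 to 17.7 FPKM (authors' deposited table, q = 0.00184), chosen after its values were seen. Ang4 thus had a higher log2 ratio than all 12. The Paneth cell genes Mmp7, Defa17, Defa22, Defa24, Defa30, Mptx2, Itln1 and Pla2g2a were unlisted.

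Dmbt1 was compared with a list of genes that carry scavenger receptor cysteine-rich domains. The list also took in Lox and Loxl1, lysyl oxidase genes without that domain. Of its 21 genes, 11 were listed, 3 lower and 8 higher, in a table where 48.0% of all listed genes were higher. Lox and Loxl1 were among the 8 higher genes. The median log2 ratio of the 11 was 1.83, which is the Loxl1 value, beside -0.76 over all listed genes. The epithelial membrane proteases Tmprss2 and Tmprss4 fell 18.9-fold and 14.1-fold. Marco, a macrophage scavenger receptor gene, rose 30.7-fold from 1.89 to 58.0 FPKM, and Scara5, a ferritin receptor gene of stromal cells, rose 9.998-fold from 5.64 to 56.4 FPKM. Cd163, Msr1, Lox, Loxl1, Loxl2 and Ssc5d also rose, while the T cell gene Cd5 fell (authors' deposited table, q = 0.00288 for Ssc5d and 0.0476 for Cd5). They were named after their values were seen. Cd163 and Msr1 are counted in the macrophage and monocyte marker list too.

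Cytokine and microbial sensing genes that act on mucosal defence genes were listed in 11 of 31 cases, 7 lower and 4 higher (median log2 ratio -1.67). Over all listed genes, 52.0% were lower and the median log2 ratio was -0.76. Il17rc, an epithelial subunit of the IL-17 receptor, fell 4.68-fold from 72.2 to 15.4 FPKM, and Il22ra1, the epithelial subunit of the IL-22 receptor, fell 4.76-fold from 11.0 to 2.31 FPKM. Ifng, an inducer of Pigr in epithelial cells, fell from 4.51 to 0.272 FPKM (authors' deposited table, q = 0.0204). The ligand gene Il17a, chosen after its values were seen, rose from 0.355 to 2.64 FPKM (authors' deposited table, q = 0.0164). The other 3 that rose, Il1b, Il17ra and Il4ra, did so 3.37-fold, 2.36-fold and 2.19-fold (authors' deposited table, q = 0.00753 for Il17ra) and were likewise named afterwards. Il22, Tnf, Il4, Il13, Tlr4, Myd88 and Nfkb1 were unlisted.

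**Figure D4:**
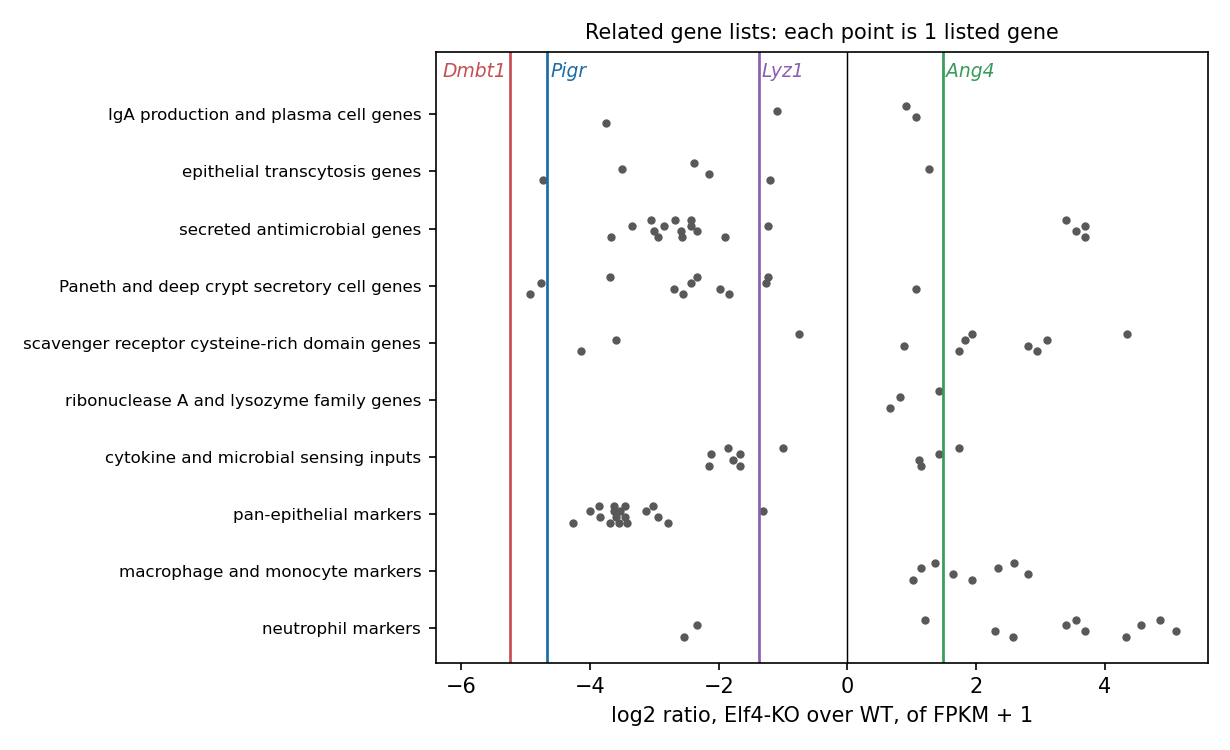
Log2 ratio of Elf4-KO over WT, of FPKM + 1, for each listed gene (points) of 10 gene lists, with vertical lines at the ratios of the 4 genes; the height of a point within its row carries no value. The Pigr and Dmbt1 lines, at -4.66 and -5.25, lie left of all 18 pan-epithelial markers. The Ang4 line, at 1.48, lies right of all 12 listed genes of the Paneth and deep crypt secretory cell list, which also holds goblet cell genes.

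The tissue was distal colon with markers of several cell types, so its cell makeup enters every value. Fewer cells of a type cannot be told apart from less RNA per cell. Of 18 pan-epithelial markers, 18 were listed and 18 fell, by 2.60-fold to 19.4-fold, and their summed level went from 12472 to 973 FPKM. The markers were chosen with earlier results of these data known, so the presence of all 18 in the table is not a result. Over all listed genes, 52.0% were lower and 48.0% were higher. Macrophage and monocyte markers were listed in 8 of 16 cases and 8 rose, with a sum of 208 FPKM in WT and 719 FPKM in Elf4-KO tissue. Of 15 neutrophil markers, 12 were listed, 10 rose and 2 fell (Ly6g and Ltf, named after their values were seen). Their sum was 1291 FPKM in WT and 5416 FPKM in Elf4-KO tissue. Ly6g alone held 854 FPKM of the WT sum and 146 FPKM of the Elf4-KO sum. The part of these shifts in the values of the 4 genes was not tested. Since the table holds only genes that passed the authors' call, counts over the lists describe the table and do not support the direction of any list.

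Relative to the epithelial markers, the 4 genes separated into those that fell further, 1 that fell less and 1 that did not follow. Pigr stood at 0.675 of the Epcam level in WT and 0.277 in Elf4-KO tissue, Epcam being an adhesion gene of all intestinal epithelial cells. The ratio of Pigr to each marker was lower in Elf4-KO tissue for 18 of 18 markers, from 1.36-fold against Krt19 to 10.1-fold against Cldn4, with a median of 2.22-fold. For Dmbt1 it was also lower for 18 of 18, with a median of 3.27-fold and a highest value of 14.9-fold against Cldn4. For Lyz1 the ratio was higher for 17 of 18 markers, with a median of 4.23-fold, and lower against Cldn4, at 0.928 of the WT ratio. For Ang4 it was higher for 18 of 18, with a median of 34.5-fold, and against Epcam it went from 0.0177 to 0.558. These markers share their libraries with the 4 genes, and no error can be set on the ratios. All 18 ratios of a gene hold the same single fold of that gene, so they are not 18 separate observations. For Pigr and Dmbt1, 18 of 18 follows from folds of 26.4 and 38.8, above the largest marker fold of 19.4. For Ang4 it follows from a rise while every marker fell. The Ang4 median holds a 2.90-fold rise of Ang4 beside a median marker fall of 11.9-fold.

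**Figure D5:**
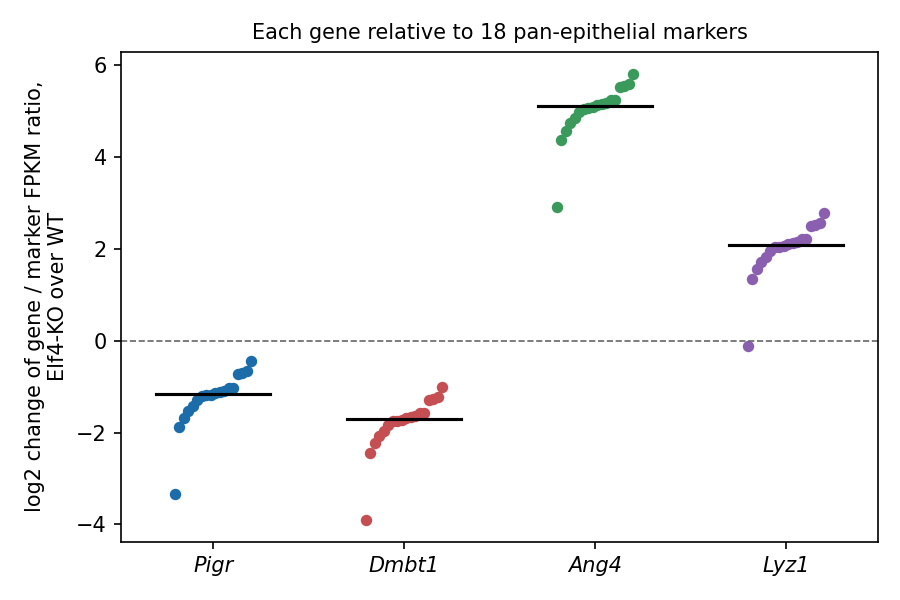
Change between genotypes, as log2 of Elf4-KO over WT, in the ratio of each gene's FPKM to that of each of 18 pan-epithelial markers (points, ordered by size), with the median as a black bar. All points of Pigr and Dmbt1 lie below 0, all points of Ang4 lie above 0, and Lyz1 lies above 0 except for 1 marker, Cldn4.

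The listed protein-coding genes nearest to each of the 4 in both values were found by Euclidean distance on the log2(FPKM + 1) scale, over the 2 genotype values only. For Pigr they were Gpx2, an epithelial glutathione peroxidase gene (569 to 24.9 FPKM, distance 0.143), Oit1 (491 to 23.2 FPKM, distance 0.305) and the kallikrein gene Klk1 (549 to 29.9 FPKM, distance 0.393). For Dmbt1 they were Agr2 (1364 to 49.4 FPKM, distance 0.369), the mitochondrial creatine kinase gene Ckmt1 (1228 to 38.4 FPKM, distance 0.530) and Spink4 (2028 to 65.5 FPKM, distance 0.599). For Ang4 they were Msrb3, Qk and the endothelial protein C receptor gene Procr, at distances of 0.0380 to 0.0482. For Lyz1 they were Pcbd2, Tmem230 and Trim2, at distances of 0.0318 to 0.0638 (authors' deposited table, q = 0.0130 for Pcbd2 and 0.000694 for Tmem230). Many listed genes have values in the range of Ang4 and Lyz1, so small distances there carry less weight than for Pigr and Dmbt1.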

How the data were processed

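RNA from colon was sequenced from 2 WT and 2 Elf4-KO samples. Per the submitters' processing notes, Bowtie 0.12.2, Cufflinks 2.2.1 and the build mm8 were used, without stated roles. Per the file headers, the authors deposited 1 FPKM value per gene and genotype, with the p-value and q-value of their own comparison. The coordinates follow GRCm38: 4116 of 4121 identifiers were in GENCODE M21, 100% on the same chromosome, with an equal end for 76.8%. Starts were raised by 1.

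Folds were taken from FPKM and log2 ratios after adding 1 FPKM. No test of genotypes was possible. The members and the 10 related lists were chosen with earlier results of these data known. Genes were named by rule: the 4 genes, every listed gene of a list with 5 or fewer or otherwise the 4 largest changes with at least 1 FPKM, chromosomal neighbours of the family, and the 3 nearest patterns. Of the genes so named, 2 are not reported here. Alternatives were added pseudocounts of 0.1 and 0 FPKM, 2 scalings, q of at most 0.01, at least 5 FPKM and at least 4-fold. Functions were tested on simulated data. Python 3.11.15, numpy 2.4.6, pandas 2.3.3, biopython 1.88 and matplotlib 3.10.9 were used.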

Additional observations from a re-analysis of the deposited data

How the results depend on the processing

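No paired analysis was possible because each genotype has a single deposited value. Leaving out each sample could not be run either, so the weight of any 1 sample is unknown. A value was taken as moved when its fold shifted by over 1.5 times. Centring on the table median of -0.76 moved all 4 log2 ratios by that amount, by construction, to -3.91 for Pigr, -4.49 for Dmbt1, 2.24 for Ang4 and -0.62 for Lyz1, and turned none. Pseudocounts of 0.1 and 0 FPKM and scaling to equal sums of listed FPKM left these 4 within that limit. Of the 2 lower IgA production genes, 1 was left with q of at most 0.01, 1 with at least 5 FPKM and 1 with at least a 4-fold difference. Of the 7 lower cytokine and sensing genes, 4 had at least a 4-fold difference. These filters keep fewer genes by construction. The other counts of lower genes stayed within 1.5 times. Depth per sample is unknown, so counting error cannot be given.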
